A study of Arabidopsis thaliana with 12 samples.

Results

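Among the brightest probes of the arrays, 37 Arabidopsis thaliana genes are described here. After quantile normalisation of all arrays, their mean signal in the toc120 mutant lay within set limits of that in wild type (WT). They were found by ranking the 692 probes that the platform annotation ties to a single gene by their mean over the 6 WT arrays, taking the top 80, and keeping those whose toc120 mean divided by WT mean lay above 0.67 and below 1.5. Of the 80, 24 lay below this band (APTX, listed at 0 on all toc120 arrays, counted among them), 12 above it, and 7 inside it were left out by name (PSBW, PSBY, PSB27, PSAN, LHB1B2, PRK and NdhS, which encode photosynthetic or related chloroplast proteins). The rule named an eighth gene, NTRC, which was not among the 80. The genes were thus selected on the WT level and on the toc120 over WT ratio, so both are descriptions and carry no test. The choice depends on the scaling of the arrays: 16 of the 37 were inside the band under all 3 scalings described below.

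Total RNA of toc120 plants and of WT plants, both of the ecotype Columbia 0, was measured on 12 arrays, 6 for each genotype. The labels describe the mutant as defective in protein import at the outer membrane of the chloroplast, and give neither tissue, plant age, growth conditions nor the nature of the mutant allele. Whether the samples are separate plants or cultures is not stated either, so any spread between arrays may be technical. Samples carry the numbers 1 to 6 in each genotype.

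Most chloroplast proteins are encoded in the nucleus, made in the cytosol and imported through the TOC and TIC complexes of the envelope. TOC120 is a GTPase receptor of the TOC complex that, with a close relative, is linked chiefly to the import of housekeeping rather than photosynthetic proteins. Plants with disturbed import or plastid function often lower nuclear transcripts of chloroplast proteins through retrograde signalling.

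The genotype and tissue could not be checked with TOC120 and a set list of marker loci, which were looked up on single-gene probes only. No single-gene probe carried TOC120, and 0 of the 18 marker loci listed for green tissue, root, pollen and seed had such a probe. For green tissue 1 locus and for root 1 locus had only a probe shared with other genes, which was not used. As deposited, array totals ran from 2641 to 3553 in WT and from 2688 to 3686 in toc120, while array medians ran from 0.151 to 0.157 in WT and from 0.188 to 0.278 in toc120. The typical probe was thus brighter in the mutant before scaling, and levels below are after quantile normalisation of all 12 arrays unless stated. On that scale a probe takes the value that belongs to its place in the order of the array, so bright probes that hold the same place on several arrays share exactly the same value. Intensity depends on the probe as well as on the RNA, and the order of different genes by intensity is not an order of their RNA amounts. With whole samples, fewer cells that make a transcript and less of it per cell cannot be told apart.

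The 37 genes spanned WT means from 0.971 to 46.9, with a median of 2.18. Counted among all 3439 probes, including those shared by several genes or tied to none, their places in WT ran from 8 to 437, and 11 of them were among the 100 brightest. None of the 37 was listed at 0 on any array, and the highest deposited value of a member was 66.9, below the top of the scale at 100. In the mutant their places ran down to 584 among all probes, and 27 of the 37 also stood among the 80 brightest single-gene probes there. Of the 43 other genes of the WT top 80, 24 did. Both counts are partly set by the rule, which kept or put aside most genes by their toc120 over WT ratio. The WT and toc120 means of the members had a Spearman's rho of 0.967 across the 37 genes, which are not independent replicates and were chosen for a narrow range of ratios. Over all 80 genes rho was 0.717.

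**Figure D1:**
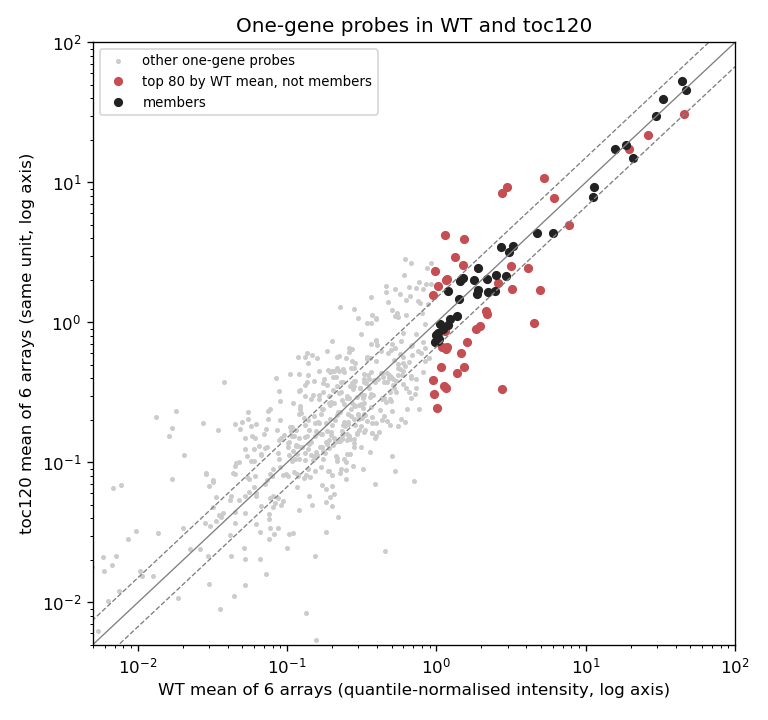
Mean quantile-normalised intensity of single-gene probes over 6 WT arrays (x axis) and 6 toc120 arrays (y axis), both on log axes, without probes whose mean is 0 in either genotype or under the axis limits. Black points are the 37 members, red points the other genes of the top 80 by WT mean, the solid line marks equal means and the dashed lines ratios of 0.67 and 1.5. Members reach from a WT mean of 0.971 to 46.9 along the solid line.

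After quantile normalisation the 37 genes together held a similar part of the signal of every array. Their summed intensity made up 8.80% to 10.2% of the array total in WT, with a median of 9.55%, and 9.30% to 9.68% in toc120, with a median of 9.60%. The means were 9.47% ± 0.640 in WT and 9.53% ± 0.166 in toc120 (SD, n = 3 means of neighbouring numbers), and the ranges overlap. WT arrays 5 and 6 had the lowest shares and WT arrays 3 and 4 the highest, so WT varied more between number pairs than toc120. Of the signal on single-gene probes alone, the members held 47.0% ± 3.003 in WT and 47.0% ± 0.668 in toc120. WT array 1 stood at 40.9% there, against 46.1% to 50.3% on the other WT arrays. Its single-gene total includes APTX at 92.1, which was listed at 0 on every other array, so the equal means rest partly on that value.

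The share was concentrated in a few probes. The 5 brightest members, AT4G22830, AT4G31530, AT2G27290, AT5G38360 and AT3G26630, held 60.7% ± 0.802 of the members' signal in WT and 63.5% ± 1.60 in toc120. The other 32 held 3.73% ± 0.178 of the array total in WT and 3.48% ± 0.120 in toc120. In the intensities as deposited the genotypes separated: the members' share ran from 9.43% to 11.1% in WT and from 8.20% to 9.11% in toc120, with no overlap. Quantile normalisation gives every array the same distribution of values, and the lower share in toc120 as deposited (8.76% ± 0.445 against 10.3% ± 0.774) was not seen after it. The share was not tested, because the comparison of genotypes had chosen the genes.

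**Figure D2:**
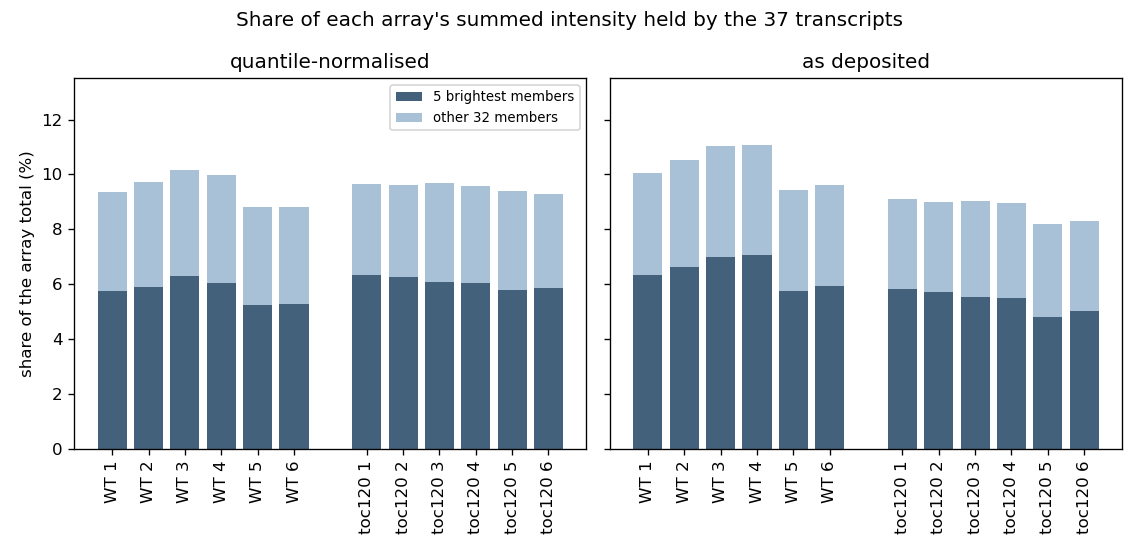
Share of each array's summed intensity held by the 37 transcripts, in percent, for each WT and toc120 array after quantile normalisation (left) and as deposited (right), split into the 5 brightest members and the other 32. After normalisation the toc120 bars lie between 9.30% and 9.68%, inside the WT range; as deposited they lie between 8.20% and 9.11%, below all WT bars.

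The roles given below are general knowledge of the Arabidopsis gene families and not results. The brightest member was AT4G22830, which encodes a protein of the YCF49-like family. Its 6 WT arrays had a lowest, median and highest level of 42.2, 46.8 and 53.3, and its toc120 arrays of 44.1, 46.8 and 46.8. The toc120 arrays lay inside the WT range on this scale, and the ratio of means was 0.978. As deposited AT4G22830 was lower in toc120 on all 6 numbers, with a ratio of 0.833. With equal array medians its ratio was 0.549 and the groups did not overlap. AT2G27290, of a family with the conserved domain DUF1279, stood at 20.9, 38.1 and 40.1 in WT and at 34.3, 38.8 and 44.1 in toc120. Its ratio of 1.21 stands beside low WT arrays 5 and 6, which averaged 20.9 against 38.1 and 39.3 for the other WT number pairs; on numbers 5 and 6 toc120 averaged 38.8. Its mean was 32.8 ± 10.3 in WT and 39.6 ± 4.11 in toc120 (SD, n = 3). The ratio turned with the scaling, to 0.903 as deposited and 0.603 with equal array medians.

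Enzymes not placed in one of the other classes formed a class of 5 members, with ratios from 0.688 to 1.2. AT4G31530, a protein with the NAD(P)-binding Rossmann fold found in many dehydrogenases, had levels of 38.6, 43.1 and 50.1 in WT and of 50.1, 53.3 and 56.1 in toc120. The groups touch at 50.1, and the ratio of means was 1.2, against 1.003 as deposited and 0.660 with equal array medians, below the band. AT5G38360, an alpha/beta hydrolase, was at 27.8, 29.6 and 31.1 in WT and at 28.6, 29.6 and 31.1 in toc120. On the quantile-normalised scale its ratio of 1.004 was the nearest to 1 among the members and its arrays agreed best: the coefficient of variation over 6 arrays was 3.49% in WT and 2.64% in toc120, and its mean was 29.5 ± 0.813 in WT and 29.7 ± 0.616 in toc120. As deposited AT5G38360 was lower in toc120 on all 6 numbers, with a ratio of 0.840. With equal array medians its ratio was 0.554 and the groups did not overlap.

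The other 3 members of this class had lower means in the mutant after quantile normalisation and with equal array medians (ratios 0.517, 0.513 and 0.639). As deposited the ratios of the first 2 were 0.788 and 0.774, and that of AT5G53920 was 0.999. AT1G15410, of the aspartate/glutamate racemase family, was at 2.48, 2.99 and 3.32 in WT and at 2.01, 2.15 and 2.34 in toc120, and the groups did not overlap. AT4G29890, annotated as a putative choline monooxygenase, was at 2.07, 2.40 and 2.93 in WT and at 1.45, 1.69 and 1.89 in toc120, again without overlap. With a ratio of 0.688 it was the member nearest the lower limit of the band. AT5G53920, related to the methyltransferase of ribosomal protein L11, was at 0.954, 1.004 and 1.13 in WT and at 0.556, 0.645 and 1.02 in toc120. Its toc120 arrays split by number: arrays 3 and 4 averaged 0.982, near the WT mean of 1.03, and the other pairs averaged 0.624 and 0.585. As deposited toc120 arrays 3 and 4, at 1.31 and 1.399, lay above every WT array (highest 1.02).

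RNA-binding proteins made up another 5 members. Pentatricopeptide repeat (PPR) proteins bind organelle RNA and act in its editing, splicing and stability, and 3 of the 5 belong to this family. AT3G26630 had the brightest probe of them, at 16.3, 22.2 and 22.7 in WT and 13.3, 15.0 and 16.3 in toc120, a ratio of 0.720 with groups that touch at 16.3. AT1G64430 was at 1.09, 1.18 and 1.33 in WT and at 0.831, 0.927 and 1.12 in toc120, with overlap. AT2G46050 was at 0.919, 1.005 and 1.08 in WT and at 0.703, 0.830 and 0.916 in toc120, and its groups did not overlap. All 3 PPR genes therefore had ratios below 1 (0.720, 0.795 and 0.815) after quantile normalisation, whereas as deposited AT1G64430 and AT2G46050 were at 1.02 and 1.08 and only AT3G26630 stayed below 1 (0.575).

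The remaining RNA-binding members carry RNA recognition motifs. AT1G70200, which acts on plastid ribosomal RNA, was higher in the mutant, at 1.72, 2.01 and 2.24 against 1.30, 1.39 and 1.60 in WT, without overlap and with a ratio of 1.38. AT2G37510 was at 0.671, 1.46 and 1.88 in WT and at 0.960, 1.06 and 1.31 in toc120. Its WT arrays spread far more than those of toc120 (coefficient of variation 31.1% against 11.7%), the toc120 arrays lay inside the WT range, and 3 of its 6 number-matched ratios were inside the band.

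A family of sugar-phosphorylating enzymes, the pfkB carbohydrate kinases, had 3 members, and all 3 had ratios above 1. AT1G17160 was at 1.65, 1.86 and 2.19 in WT and at 2.102, 2.47 and 2.78 in toc120 (ratio 1.28). AT1G50390 was at 1.61, 1.81 and 1.95 in WT and at 1.76, 1.93 and 2.30 in toc120 (ratio 1.12). AT1G06730 was at 1.39, 1.48 and 1.65 in WT and at 1.55, 2.01 and 2.60 in toc120 (ratio 1.38). The genotypes overlapped for each of the 3, and a probe may also catch RNA of relatives in this family. As deposited the ratios were 1.49, 1.33 and 1.71, and with array medians made equal they were 0.990, 0.868 and 1.11, so the direction of AT1G17160 and AT1G50390 turned with the scaling.

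Proteins of chloroplast metabolism had ratios from 0.879 to 0.932. AT1G74470 encodes geranylgeranyl reductase, which makes the phytyl chain of chlorophyll and tocopherols. It stood at 4.25, 4.69 and 4.99 in WT and at 3.52, 4.45 and 4.92 in toc120 (ratio 0.931). AT4G27700, a rhodanese-like protein of the chloroplast, was at 2.27, 2.40 and 2.95 in WT and at 1.84, 2.30 and 2.54 in toc120 (ratio 0.879). AT2G38550, of the TMEM14 family that includes fatty acid exporters of the plastid envelope, was at 2.02, 2.12 and 2.47 in WT and at 1.81, 2.05 and 2.20 in toc120 (ratio 0.932). All 3 had overlapping genotypes and all 6 number-matched ratios inside the band. As deposited their ratios were 0.861, 0.985 and 1.09, and with equal array medians 0.573, 0.657 and 0.719, so that AT2G38550 lay on either side of 1.

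Of the members linked to protein folding, AT3G47650 encodes a zinc finger protein of the DnaJ type known as a chaperone of Rubisco assembly. Its levels were 1.58, 1.77 and 2.36 in WT and 1.26, 1.68 and 1.79 in toc120, with overlap and a ratio of 0.852. AT4G17070, a peptidyl-prolyl isomerase-like protein, had the highest coefficient of variation in WT, with levels of 7.22, 17.6 and 21.7 in WT and of 10.8, 19.2 and 21.7 in toc120. Numbers 1 and 2 were low in both genotypes, averaging 7.46 in WT and 11.5 in toc120, against 17.6 to 21.7 and 19.9 to 21.0 for the other pairs. The coefficient of variation was 42.2% in WT and 27.7% in toc120.

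Proteins built of repeats that serve as binding scaffolds gave 3 members. AT1G51350, with armadillo repeats, was at 14.6, 19.0 and 22.7 in WT and at 17.1, 17.6 and 20.9 in toc120, a ratio of 0.985. Its WT pair means were 22.2, 19.0 and 15.0 and those of toc120 were 17.1, 17.6 and 20.6, so the number pairs stood in opposite orders in the genotypes. AT3G06570, an F-box protein with kelch repeats, was at 5.36, 5.86 and 7.06 in WT and at 4.02, 4.23 and 4.85 in toc120, without overlap (ratio 0.718). AT3G09080, with WD40 repeats, was at 2.43, 2.72 and 2.95 in WT and at 3.25, 3.39 and 3.92 in toc120, again without overlap (ratio 1.28, but 0.849 with equal array medians). Both lay inside the band and yet had every array of a genotype on the same side.

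The nuclear proteins were RAP74, IAA31 and AT3G16310. RAP74, the large subunit of the general transcription factor TFIIF of RNA polymerase II, was at 2.84, 3.24 and 3.52 in WT and at 2.68, 3.44 and 4.55 in toc120 (ratio 1.09, and 0.724 with equal array medians). Its toc120 pair means were 4.45, 3.44 and 2.68, so numbers 1 and 2 lay above the WT range and numbers 5 and 6 below it. IAA31, a member of the Aux/IAA family of repressors of auxin-responsive genes, was at 1.096, 1.16 and 1.38 in WT and at 1.42, 1.58 and 2.04 in toc120. The groups did not overlap, and its ratio of 1.39 was the highest of the 37 and stayed above 1 under the other scalings (1.78 as deposited, 1.16 with equal array medians). AT3G16310, a nucleoporin, was at 0.877, 0.987 and 1.28 in WT and at 0.515, 0.723 and 0.987 in toc120 (ratio 0.732), and in both genotypes numbers 5 and 6 were the highest pair, at 1.23 and 0.980.

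The last class holds 13 members of other or unknown function, of which AT4G22830 and AT2G27290 are described above. Together the 13 held 40.5% of the members' signal in WT. AT2G46220, with the conserved domain DUF2358, was at 7.49, 11.1 and 14.6 in WT and at 6.60, 10.3 and 10.9 in toc120 (ratio 0.821). AT5G50350 was at 8.72, 11.6 and 13.3 in WT and at 6.80, 7.89 and 9.34 in toc120 (ratio 0.712), and of its WT arrays only 5 and 6, which averaged 8.78, reached the toc120 range. AT4G16410 was at 2.73, 2.97 and 3.52 in WT and at 2.72, 3.26 and 3.45 in toc120 (ratio 1.04), and the ranges nearly coincide. AT3G15900 had the same ratio of 1.04, at 1.21, 1.38 and 1.63 in WT and at 0.939, 1.47 and 2.03 in toc120, and numbers 3 and 4 were its highest pair in both genotypes.

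AT2G44760 had the highest coefficient of variation of the 37, at 45.4% in toc120 and 36.9% in WT. Numbers 1 and 2 averaged 0.651 in WT and 0.459 in toc120, against 1.53 and 1.51 for the other WT pairs and 1.22 and 1.49 for the other toc120 pairs. Its ratio of 0.859 thus stands beside a difference between numbers that is larger than the difference between genotypes. AT5G66780 was at 1.89, 2.20 and 2.57 in WT and at 1.41, 1.62 and 1.91 in toc120 (ratio 0.740). AT1G32730 was at 1.60, 1.91 and 2.19 in WT and at 1.46, 1.65 and 2.03 in toc120 (ratio 0.903). Both overlapped between the genotypes.

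The dimmest members of this class lay near an intensity of 1 and below it in the mutant. Means in WT and toc120 were 1.102 ± 0.163 and 0.895 ± 0.0917 for AT2G04790 (SD, n = 3). AT5G49120, a plant-specific zinc finger protein of the FLZ family, was at 1.06 ± 0.0786 and 0.972 ± 0.0669. For AT2G02590 the means were 1.03 ± 0.0987 and 0.839 ± 0.0306, and for AT2G37750 they were 0.971 ± 0.106 and 0.720 ± 0.124. The ratios of these 4 were 0.813, 0.919, 0.818 and 0.741, and the genotypes overlapped for all 4.

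**Figure D3:**
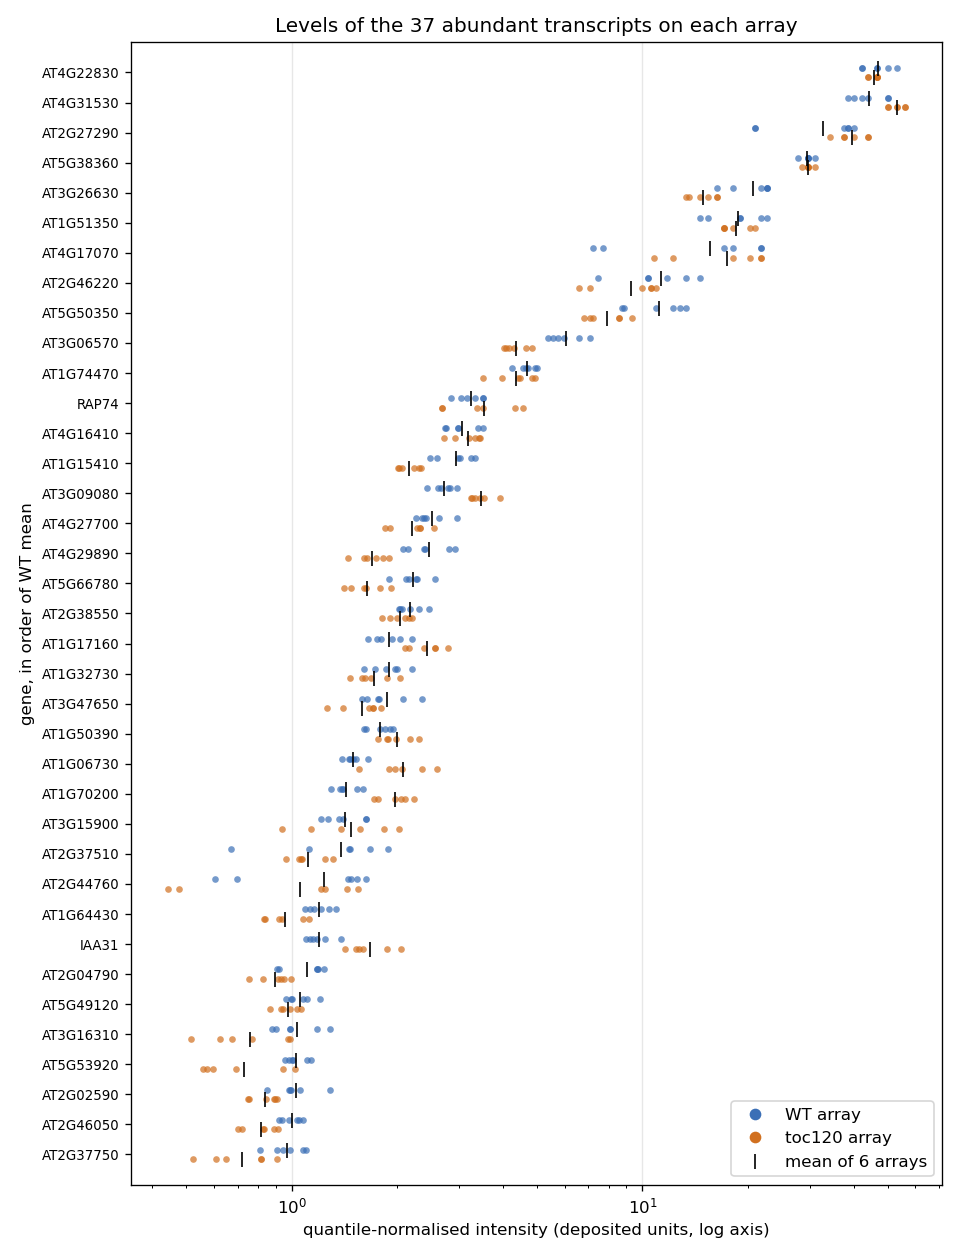
Quantile-normalised intensity (log axis) of each of the 37 transcripts on the 6 WT arrays (blue) and 6 toc120 arrays (orange), with the mean of each genotype as a black tick and genes in order of their WT mean. The colours overlap for 30 of the 37 genes; the tight cluster of AT5G38360 near 29.6 and the wide spread of AT4G17070 and AT2G44760 show how much the spread over the arrays differs between members.

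Over the 37 members the ratio ran from 0.688 to 1.39 with a median of 0.903, and 24 lay below 1 and 13 above. Within 0.8 to 1.2 there were 20 members and within 0.9 to 1.1 there were 10. Ratios inside the band of the rule were found for 39.5% of the 643 single-gene probes above 0 in WT and for 40.9% of all probes above 0 there, and for 44 of the 80 brightest (55%). Along the ranking the share was 38.8% for places 81 to 160, 43.8% for places 161 to 240 and 45% for places 401 to 480, and it was 16.3% for places 561 to 640, where the WT means were at most 0.0371. These shares describe where the band lies, and the band chose the members.

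The 6 WT and 6 toc120 arrays did not overlap for 7 of the 37 members, 3 higher in toc120 (AT3G09080, AT1G70200 and IAA31) and 4 lower (AT3G06570, AT1G15410, AT4G29890 and AT2G46050). Over all probes, 31% did not overlap, 14.7% higher and 16.3% lower in toc120. As deposited 2 members did not overlap (AT1G17160 and AT1G70200, both higher; 29.3% of all probes), and with equal array medians 15, all lower (30.3% of all probes). In the limma fit of all probes over the 12 arrays, 46.1% passed an adjusted p of 0.05, 21.4% higher and 24.8% lower in toc120. Of the 37 members 19 passed, 6 higher and 13 lower, which is a description only, since the rule had used this comparison. With neighbouring numbers averaged first, 31.5% of all probes passed and 5 of the 37 members, AT3G06570, AT1G15410, AT3G09080, AT4G29890 and AT1G70200. Members passing numbered 18 with the sample number as a block in the fit (49.1% of all probes), 6 with the number pair as a block on averaged neighbours (28.5%), 9 as deposited (45.5%) and 24, all lower in toc120, with equal array medians (46.3%). The balance of directions turned with the scaling: as deposited 33.8% of all probes passed as higher and 11.6% as lower, with 5 members higher and 4 lower, and the median log2 difference of all probes was 0.23. With equal array medians 19.1% passed as higher and 27.2% as lower. A ratio inside the band is therefore a limit on the size of a difference and does not mean that no difference was measured.

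The values on either side of the limits were as follows. The members nearest the lower limit were AT4G29890 (0.688), AT5G53920 (0.710) and AT5G50350 (0.712), and the genes just outside were AT4G19900 (0.646), AT2G31800 (0.616) and AT4G39690 (0.596). PSBW, at 0.682, lay inside but was left out by name. Nearest the upper limit were IAA31 (1.39), AT1G06730 (1.38) and AT1G70200 (1.38), and the next genes outside were AT2G35390 (1.66), AT4G24090 (1.72) and AT2G15440 (1.73). In the ranking, the place of 80 was held by HEMA3 with a WT mean of 0.944, and MAMI and AT1G13370 followed at 0.919 each. None of these 3 had a ratio inside the band (0.413, 2.04 and 2.91).

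By construction of the band, the genes of the top 80 outside it lay further from equality. XERICO (0.123), AT4G32060 (0.220), AT2G46300 (0.243) and OTP70 (0.293), a PPR protein of organelle transcripts, had the lowest measured ratios, and AT1G10310 (3.68), AT4G18180 (3.16), AT1G76450 (3.03), AT3G04650 (2.56) and AT3G32930 (2.39) the highest. APTX, an aprataxin-like protein, owed its place among the 80 to WT array 1, where it stood at 92.1. It was listed at 0 on the other 5 WT arrays and on all 6 toc120 arrays, so its ratio of 0, counted as below the band, is not set beside the others, and leaving out WT array 1 left the number of members at 37.

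Whether a transcript counts as kept changed with the way arrays were scaled. As deposited, 31 of the 37 members stayed inside the band and the median ratio was 1.02. AT3G26630 (0.575), AT5G50350 (0.609) and AT3G06570 (0.660) lay below it, and IAA31 (1.78), AT1G06730 (1.71) and AT1G70200 (1.71) lay above. With array medians made equal, 19 stayed inside, 18 lay below and 0 above, and the median ratio was 0.672. The lowest were AT3G26630 (0.381), AT5G50350 (0.405), AT3G06570 (0.431), AT2G46220 (0.471) and AT4G29890 (0.513). Inside the band under all 3 scalings were 16 members. For comparison, the median ratio of all probes above 0 in WT was 0.941 on the quantile-normalised scale, 1.35 as deposited and 0.884 with equal medians.

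The scalings moved the bright and the dim members differently. For the 10 brightest the median ratio was 0.982 on the quantile-normalised scale, 0.822 as deposited and 0.541 with equal medians, and under the last scaling 0 of these 10 reached the band, the highest being 0.660. For the 10 dimmest the medians were 0.814, 1.07 and 0.694. As deposited, AT5G38360 was at 0.840 and AT4G22830 at 0.833, while AT4G31530, at 1.2 after quantile normalisation, was at 1.003. The number of members above a ratio of 1 was 13 on the quantile-normalised scale, 20 as deposited and 3 with equal medians, and 20 of the 37 changed sides of 1 between the 3 scalings. The 3 above 1 throughout were AT1G06730 (1.11 with equal medians), AT1G70200 (1.12) and IAA31 (1.16).

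**Figure D4:**
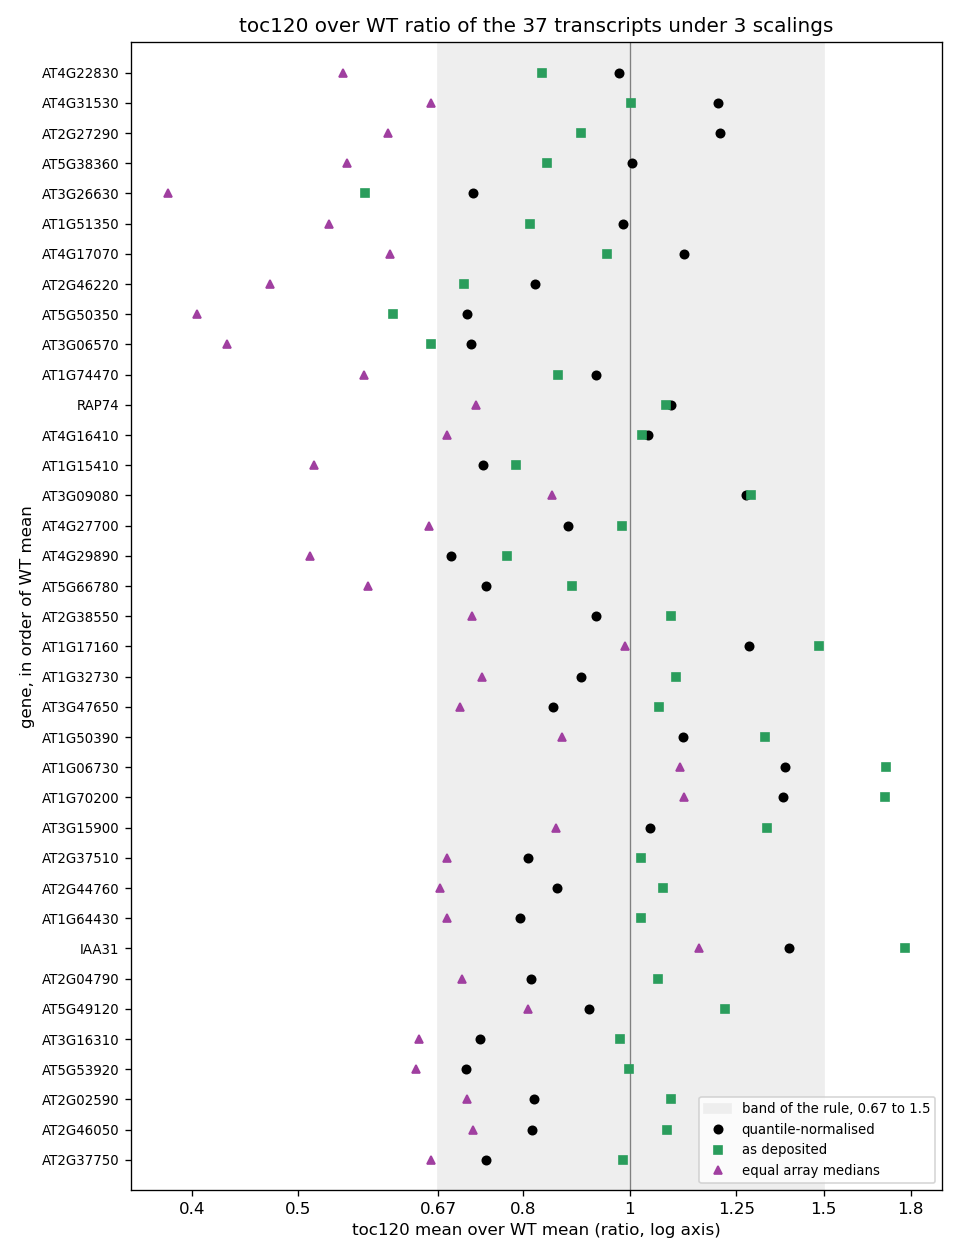
toc120 mean over WT mean (log axis) of each of the 37 transcripts, with quantile-normalised values as black circles, deposited values as green squares and values at equal array medians as purple triangles; the grey area is the band of the rule, 0.67 to 1.5, and genes are in order of their WT mean. All black circles lie in the band by choice, 31 green squares and 19 purple triangles do, and the triangles of the 10 brightest genes all lie to its left.

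Variation between arrays was smaller for the members than for single-gene probes in general. The median coefficient of variation over 6 arrays was 10.8% in WT and 10.8% in toc120 for the members, 12.7% and 11.9% for the other genes of the top 80, and 24.1% and 27.2% for all single-gene probes above 0 in WT. It exceeded 20% for 5 members in WT and for 8 in toc120. Going by the larger of the 2 genotypes' coefficients, the lowest were those of AT5G38360, AT3G09080 (6.83% in WT, 7.26% in toc120) and AT2G38550 (8.17% and 7.49%).

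For most members the number pairs stood further apart than the arrays within a pair, and the same count over all probes is not given. The range of the 3 pair means was larger than the largest difference within a pair for 31 of the 37 members in WT and for 29 in toc120. Several members had the same low or high numbers in both genotypes: numbers 1 and 2 were lowest for AT4G17070 and AT2G44760, numbers 3 and 4 were highest for AT3G15900, and numbers 5 and 6 were highest for AT3G16310. These are examples, and how many members shared such a pair is not given. Others did not: the pairs of AT1G51350 stood in opposite orders, and AT1G06730 was highest on numbers 5 and 6 in WT but on 3 and 4 in toc120. Across the members, the deviations of a WT array and of its toc120 array with the same number had a Pearson's r of 0.190 to 0.764, over 37 genes that share each array. What the numbers stand for is not given in the labels, and their part in the ratios was not tested beyond the number-matched ratios that follow.

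Formed between arrays of equal number, all 6 ratios were inside the band for 17 members, 5 of 6 for 8, 4 of 6 for 6 and 3 of 6 for 6. The 6 with 3 ratios inside were AT3G26630, AT5G50350, AT4G29890, AT2G37510, AT5G53920 and AT2G37750. On all 6 numbers of the quantile-normalised scale toc120 was higher for AT4G31530, AT3G09080, AT1G17160, AT1G06730, AT1G70200 and IAA31, and lower for 12 members, from AT3G26630 among the brightest to AT2G37750 at the dim end. As deposited 5 of these 6 and 4 of these 12 kept their sign on all 6 numbers. AT2G46050, among the 12, was then higher on all 6, and AT4G31530 was lower on numbers 3, 4 and 5. AT4G22830 and AT5G38360, in neither of these lists, were lower on all 6 as deposited. With equal array medians 1 of the 6 (IAA31) and 11 of the 12 kept their sign, and AT4G31530 was lower on all 6. The shares of all probes with such signs or with ratios inside the band on each number are not given beside these counts. Neighbouring numbers were more alike than other arrays of a genotype, so 6 agreeing numbers are not 6 independent readings.

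Because all 12 arrays entered the choice, it was repeated without a number pair and the ratio was then read on the pair left out. Chosen without numbers 1 and 2 there were 37 genes, of which 32 had a ratio inside the band on those numbers (86.5%, median ratio 0.977). Without numbers 3 and 4 there were 37, of which 31 stayed inside (83.8%, median 0.914), and without numbers 5 and 6 there were 34, of which 29 did (85.3%, median 0.882). Ratios on the pairs left out ran from 0.479 to 1.86. The share of all probes inside the band on the pairs left out is not given beside them. With equal numbers alike in both genotypes and arrays of unstated origin, the members' shares describe the arrays at hand. They are no check on the choice.

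**Figure D5:**
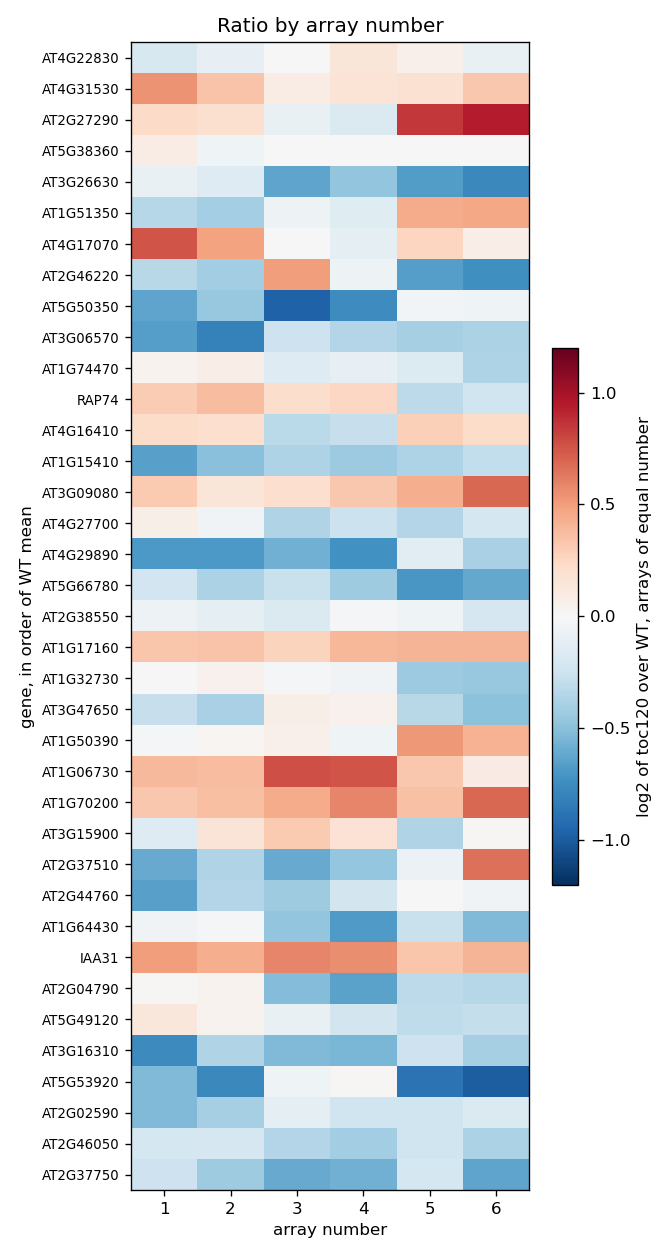
Log2 of toc120 over WT quantile-normalised intensity for each of the 37 transcripts (rows, in order of WT mean) and each array number (columns), red for higher and blue for lower in toc120. Neighbouring columns resemble each other, AT5G38360 is near white throughout, and AT2G27290 is red chiefly on numbers 5 and 6, where WT averaged 20.9.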

How the data were processed

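The labels of the 12 arrays give the genotype, ecotype, molecule and a sample number, and groups were taken from the sample titles. The values are probe intensities on a linear scale from 0 to 100, deposited as a single table. Which array was used, and how its signals were background-corrected and scaled, is not stated, and the files hold no background signal. How many separate plants or cultures the arrays stand for is not stated either. The precision may therefore be lower than 12 independent arrays would give.

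The 12 columns were quantile-normalised over all 3439 probes. Gene names come from the annotation GEO holds for the platform, which may be outdated. Of the 692 single-gene probes, 690 were matched to a TAIR10.1 locus. The deposited intensities name no genome build, so no coordinates are given.

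Levels are means of 6 arrays, with the SD over the 3 means of arrays with neighbouring numbers (1 and 2, 3 and 4, 5 and 6), because such arrays were more alike (Spearman's rho 0.952 to 0.975 across probes) than other arrays of a genotype (0.91 to 0.946). All probes were fitted with limma 3.58.1 in R 4.3.3 on log2(intensity + 0.0261), two-sided, with Benjamini-Hochberg adjustment and a threshold of 0.05. The fit was also run on simulated data, in which all arrays were independent. That run does not cover likeness between neighbouring or equal numbers, so it says nothing on how such likeness affects the calls. Across all probes, the deviations of a WT array and of the equally numbered toc120 array had r between 0.217 and 0.348, and 12 of 12 arrays correlated best with their own number, so the numbers pair the samples, going by the data and not by the labels.

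The members and lists were chosen with earlier results of these data known. Full values are given by a rule: the 12 brightest members, those next to each limit, the 5 nearest a ratio of 1, the most and least variable, those leaving the band under another scaling, and up to 3 per function class; the other members are given more briefly. Function classes were to come from gene descriptions in the reference table, which holds none. They were assigned by hand to the 37 members from general knowledge of the gene families. Python 3.11.15 with matplotlib 3.10.9 drew the figures.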

Additional observations from a re-analysis of the deposited data

How the results depend on the processing

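The number of members was 36 to 37 when any array was left out. It was 34 with the intensities as deposited (31 of them among the 37), 25 with equal array medians (19 among the 37), 36 with medians of the 6 arrays, 30 from the top 60, 43 from the top 100, 28 when ranked by toc120 and 37 without probes near the top of the scale. It was 20 with a band of 0.8 to 1.2, which is narrower by construction. The members' share of the array total was 10.3% in WT and 8.76% in toc120 both as deposited and with equal medians, a scaling that leaves shares as they are, and 47.0% in each genotype when taken of single-gene probes only. Without single arrays it ran from 9.34% to 9.61% in WT and from 9.51% to 9.58% in toc120.

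Among all probes, 1587 passed in limma over the 12 arrays. With the number as a replicate block 1688 passed, among them 18 of the 37 members against 19 without it. With neighbours averaged 1084 passed and 5 members, and with the number pair as a replicate block on those averages 979 and 6. As deposited 9 members passed, 5 higher and 4 lower, and 1164 probes were higher and 400 lower, against 735 and 852 after quantile normalisation. With equal medians 24 members passed, all lower in toc120. Neighbours as a random block and a larger constant before log2 gave 1288 and 1604 calls among the 3439 probes, with 16 and 19 members. A fit of the brighter part of the probes tested only 1719, of which 1187 passed, a larger part than the 1587 of 3439. Among those passing were 241 of the 342 single-gene probes tested and 19 of the 37 members. Leaving out single arrays gave 1506 to 1588 calls, of which 16 to 19 were members. The ratio of a member moved by more than its SD over number pairs for 30 of the 37 with equal medians, all downwards, and for 21 as deposited, 18 upwards and 3 downwards. The cause was not tested.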

Other observations

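Dixon's test of a single high or low array was applied to the 6 arrays of each genotype for every member, and to the members' share of the total, 78 groups in all. It marked 0 of them, although chance marks about 1 in 20 groups of independent samples. Where a member had arrays far from the others they came as neighbouring numbers in the cases of AT2G27290 (WT arrays 5 and 6) and AT4G17070 (arrays 1 and 2 of both genotypes), and the test looks for a single array.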
